A study of Homo sapiens with 6 samples.

Results

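The 44 collagen genes of the human genome that the deposited table names were examined in naive and primed human embryonic stem cells. Members were all gene names of the form COL, a number, A and a number, with the counts of identifiers sharing a name summed. They make up 44 of 48183 gene names, under 50 of 61196 Ensembl identifiers, 7 of which belong to COL11A2. By the structure of their products, 11 were grouped as fibrillar, 9 as basement membrane and 24 as other collagens.

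The data are 6 bulk RNA-seq libraries, 4 of naive and 2 of primed cells. All carried EOS, a GFP reporter of the OCT4 distal enhancer that is active in the naive state. The primed libraries were 1 of the EOS line (primed EOS) and 1 of the CA-p38 EOS line (primed CA-p38), whose added transgene encodes a constitutively active p38 kinase switched on by doxycycline. Primed cells grew on Matrigel in StemFit AK02N. Naive cells had been induced from the EOS line with AICAR, an activator of the kinase AMPK (AICAR 1 and AICAR 2), or with valproic acid, a histone deacetylase inhibitor (VPA naive), or from the CA-p38 EOS line with doxycycline (CA-p38 naive). After induction they were passaged in PXGL (PD0325901, XAV939, Go6983 and human LIF) on Matrigel with mitomycin C-treated mouse embryonic fibroblasts, and CD75+/SUSD2+ cells were sorted for RNA. The study's text also says that CA-p38-induced cells were later moved to PXGL without feeder cells. It describes such culture of AICAR-induced cells too, for its single-cell sequencing. It does not say which culture the naive cells of these bulk libraries came from. State, medium, sorting and, for at least part of the culture, feeder cells therefore changed together, and their effects cannot be told apart. The labels name the line H1, whereas the study's text names H9, and neither says that the libraries of a state came from separate cultures. The p-values thus measure the spread between these libraries, which may be technical.

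Collagens are extracellular proteins in which alpha chains wind around each other as trimers, of 1 gene's product or of several. Fibrillar collagens (types I, II, III, V, XI, XXIV and XXVII) form the fibres of connective tissue. Type IV collagen forms the network of basement membranes, the sheets on which epithelia and the early epiblast rest. The other collagens decorate fibrils, form beaded filaments or small networks, or span the cell membrane. Every chain needs hydroxylation, chaperones and export from the endoplasmic reticulum, and many are then trimmed and crosslinked outside the cell.

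Markers, chosen with earlier results of these data known, went with the labelled states. All 6 naive markers (KLF17, DPPA5, DPPA3, KLF4, SUSD2 and TFCP2L1) were higher in naive libraries, and all 6 primed markers (ZIC2, SFRP2, THY1, DUSP6, CD24 and TNIK) were lower. Naive cells were sorted for SUSD2 protein, so the rise of its RNA is no independent check of the state. Library totals ran from 46823699 to 54277064 counts, so that 3 counts correspond to 0.0552 to 0.0613 CPM (counts per 1000000 counts, with library sizes scaled by TMM). Of 8 markers of hypoblast and endoderm, 2 were higher in naive cells, 4 were lower and 2 did not pass. HNF4A had 19.3 to 22.4 CPM in naive and 0.606 and 0.797 in primed libraries, and GATA4 had 7.53 to 13.5 CPM in naive libraries, against 0 and 0.940 for the EOS and CA-p38 EOS lines when primed. FOXA2 had 0.415 to 1.19 CPM in naive libraries against 5.35 and 21.4 for the same primed lines, and SOX17 had 0.201 to 0.376 against 1.56 and 4.86 CPM. The list summed to 37.4 to 40.9 CPM in naive libraries, against 11.3 and 39.9 CPM in the primed ones. Of 6 mesoderm markers 3 were higher and 1 lower, of 6 trophoblast markers 2 were higher and 0 lower, and of 6 markers of neuroectoderm and neural crest 1 was higher and 1 lower. Of all genes tested, 27% were lower and 26% were higher. In naive libraries the higher TBXT, TBX6 and HAND1 had 1.64 to 2.47, 4.08 to 5.28 and 1.35 to 2.91 CPM. KRT7 had 4.71 to 9.81 CPM, HAVCR1 0.455 to 2.12 and TFAP2B 0.344 to 0.552. In primed EOS and primed CA-p38 the lower EOMES had 1.21 and 7.42 CPM, and FOXD3 had 15.8 and 21.3. The part of cells carrying any of these markers in the collagen values was not tested. No library stood apart in its total or scaling factor (0.936 to 1.06).

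Collagen transcripts made up a smaller share of the counts in naive than in primed libraries. CPM are shares of a library, so amounts per cell were not measured. The summed level of the 44 genes was 754 and 696 CPM in AICAR 1 and AICAR 2, 746 in CA-p38 naive and 675 in VPA naive, against 1738 and 1675 in the primed libraries. Values of a gene are given in the order AICAR 1, AICAR 2, CA-p38 naive and VPA naive, and primed EOS before primed CA-p38. The means of the sum were 717 ± 38.3 CPM (SD, n = 4) and 1706 ± 44.5 CPM (SD, n = 2), a 2.38-fold difference with no overlap. In bulk RNA, fewer cells of a type and less RNA per cell cannot be told apart. Most of the difference lay in basement membrane collagens, at 129 ± 5.15 CPM in naive and 859 ± 6.56 in primed cells. Fibrillar collagens summed to 213 ± 28.4 and 374 ± 20.1 CPM. The other collagens summed to 376 ± 39.0 and 474 ± 17.9 CPM.

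**Figure D1:**
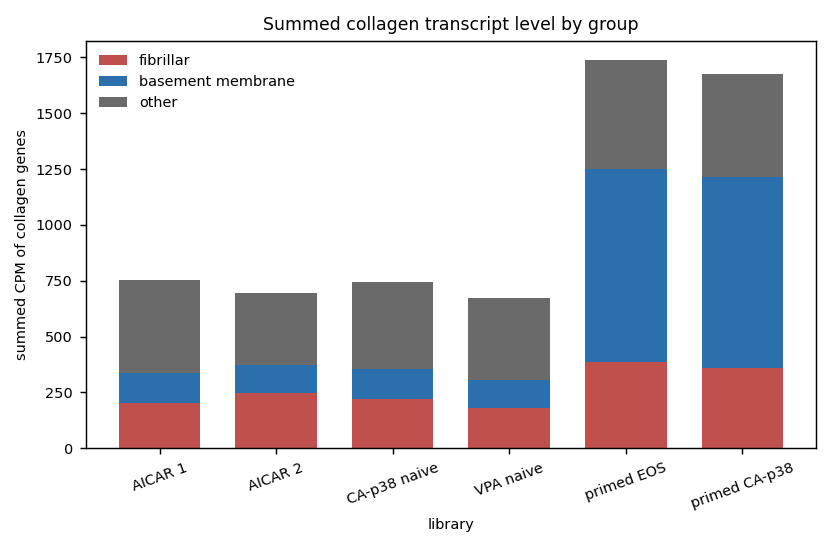
Summed level of all collagen genes in each of the 6 libraries, in TMM-scaled CPM, stacked by group. The basement membrane segment spans 124 to 134 CPM in the 4 naive libraries and 854 to 864 CPM in the 2 primed libraries, and the grey segment of other collagens differs least in relative terms.

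The make-up of the collagen transcripts changed along with their summed level. Basement membrane genes gave 49.7 to 51.0% of collagen CPM in primed and 17.7 to 18.4% in naive libraries. The share of other collagens was 27.5 to 28% in primed and 46.6 to 55.2% in naive libraries, and that of fibrillar collagens 21.5 to 22.3% and 26.7 to 35.5%. Longer transcripts give more counts, so these are shares of counts and not of molecules. In primed cells COL18A1 alone gave 24.5 to 25.7% of collagen counts, and in naive cells COL9A3 alone gave 19.4 to 21.2%. Per kilobase of exon, COL18A1 ranked first among collagens in primed cells at 50.5 CPM per kb and 6 in naive cells at 6.78. COL9A3 ranked first in naive cells at 29.5 CPM per kb and 11 in primed cells at 5.11.

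Of the 44 genes, 42 had counts enough to test, and COL15A1 and COL6A5 had not. COL15A1 stayed at or below 0.184 CPM in every library, and COL6A5 had counts only in primed CA-p38 (0.163 CPM). With edgeR's quasi-likelihood test over 26497 genes and an adjusted p threshold of 0.05, 20 collagens were lower in naive cells, 6 were higher and 16 did not pass. Of all genes tested, 27% were lower and 26% were higher. The lower calls were 47.6% of the collagens tested and the higher calls 14.3%. The median log2 fold change was -0.69 over the collagens and 0.11 over all genes tested. At least 2-fold changes made up 18 of the 20 lower and all 6 of the higher calls. Naive libraries all lay below both primed libraries for 20 collagens (32.1% of all genes tested) and all above for 7 (32.9% of all genes tested). For the other 15 the states overlapped. The seventh gene above was COL10A1 of growth cartilage, at 0.101 to 0.277 CPM in naive and 0.0808 and 0.0613 in primed libraries (adjusted p = 0.23, edgeR).

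**Figure D2:**
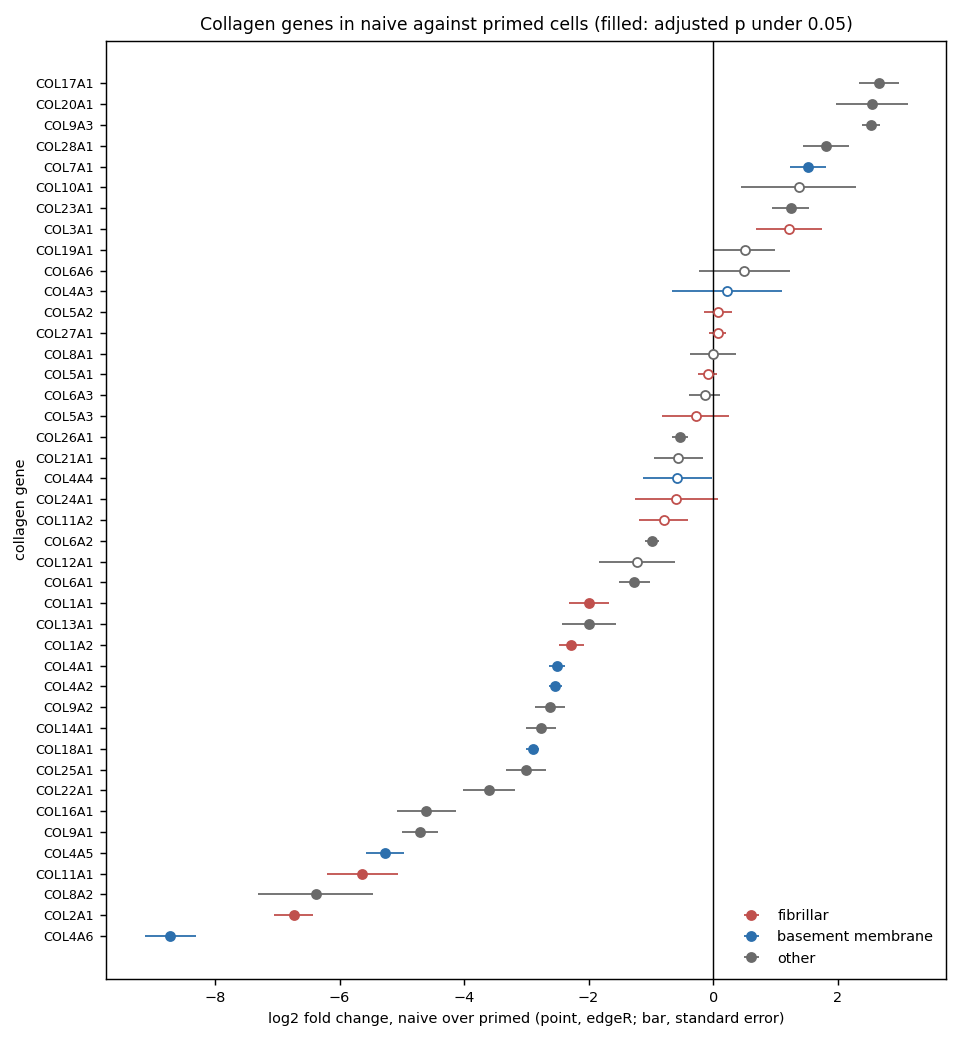
Log2 fold change of naive over primed cells for the 42 collagen genes tested, from edgeR, with bars of 1 standard error, coloured by group. Filled points passed an adjusted p of 0.05. The scale runs from COL4A6 at -8.72 to COL17A1 at 2.66, and no fibrillar collagen is filled on the right of 0.

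The type IV genes lie in pairs with head-to-head starts, and paired genes are given together. COL4A1 (ENSG00000187498, chr13:110148963-110307157, minus strand) and COL4A2 (ENSG00000134871, chr13:110305812-110513209, plus strand) encode the chains of the common type IV trimer of nearly all basement membranes. In RefSeq their starts are 126 bases apart. The intervening run is shown because both genes read out from it and moved by nearly the same fold. It is given on the plus strand of GRCh38.p14, with GC boxes (GGGCGG) and CCAAT boxes in capitals on either strand.
COL4A1-COL4A2, chr13:110307158-110307283: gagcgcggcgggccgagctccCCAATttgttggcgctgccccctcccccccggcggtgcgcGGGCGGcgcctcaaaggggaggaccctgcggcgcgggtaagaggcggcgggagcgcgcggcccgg
The run holds 1 GC box, 1 CCAAT box, no TATA box (TATAAA) and 20 CpG dinucleotides, at 80.2% G and C.

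COL4A1 stood at 26.5 and 31.4 CPM in AICAR 1 and AICAR 2, 23.5 in CA-p38 naive and 22.5 in VPA naive, against 145 and 150 in the primed libraries. COL4A2 stood at 31.8, 28.2, 32.1 and 30.5 CPM in the same naive libraries, and at 182 and 174 in the primed ones. Both genes were far lower in all naive libraries, with narrow spread within a state. The log2 fold changes were -2.51 ± 0.13 (SE, adjusted p = 5.91e-09) and -2.54 ± 0.10 (adjusted p = 6.27e-10), both from edgeR. The COL4A1 to COL4A2 count ratio was 0.734 to 1.11 in naive and 0.797 and 0.864 in primed libraries. The annotated transcripts of this pair overlap at their starts on opposite strands, and whether counting used strand is not stated.

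COL4A5 (ENSG00000188153, chrX:108439838-108697545, plus strand) and COL4A6 (ENSG00000197565, chrX:108155607-108439497, minus strand) encode the chains of another type IV trimer, found in skin and smooth muscle, and COL4A5 also joins the kidney trimer with COL4A3 and COL4A4. Their RefSeq starts lie 379 bases apart. The 250 bases of this gap that lie next to the COL4A5 start are shown because these genes fell more than the other type IV genes, and are given 5′ to 3′ on its own strand with the same motifs in capitals.
COL4A5, chrX:108439588-108439837: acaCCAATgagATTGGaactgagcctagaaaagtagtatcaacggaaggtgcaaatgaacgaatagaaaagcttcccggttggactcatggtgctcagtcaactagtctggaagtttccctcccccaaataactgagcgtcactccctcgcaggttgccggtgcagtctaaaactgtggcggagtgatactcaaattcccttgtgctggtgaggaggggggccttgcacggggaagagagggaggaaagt
This window holds 2 CCAAT boxes, no GC box, 8 CpG dinucleotides and 51.2% G and C.

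COL4A6 was barely detected in naive cells. It stood at 0.166 and 0.282 CPM in AICAR 1 and AICAR 2, 0.0396 in CA-p38 naive and 0 in VPA naive, against 55.0 and 49.0 in the primed libraries. In counts, naive libraries held 9, 14, 2 and 0 reads and primed libraries 2723 and 2397. The log2 fold change was -8.72 ± 0.41 (SE, adjusted p = 2.48e-09, edgeR), the largest decrease of any collagen tested. COL4A5 had 0.478, 1.47, 1.52 and 1.58 CPM in AICAR 1, AICAR 2, CA-p38 naive and VPA naive, and 49.7 and 47.5 CPM in the primed libraries. Its log2 fold change was -5.27 ± 0.30 (SE, adjusted p = 1.42e-08, edgeR). In primed cells COL4A5 and COL4A6 counts were near parity, with ratios of 0.905 and 0.970. In naive libraries, COL4A6 had too few counts for its ratio to be compared. COL4A3 and COL4A4, the other kidney chains, start 418 bases apart in RefSeq and stayed below 1 CPM in every library. COL4A3 ranged from 0.0604 to 0.229 CPM in naive and 0.101 to 0.163 in primed libraries, and COL4A4 from 0.248 to 0.625 and 0.450 to 0.889. Neither passed the test.

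The collagens of the basement membrane zone split. COL18A1 (ENSG00000182871, chr21:45405165-45513720) encodes a heparan sulfate-bearing collagen whose C-terminal fragment is endostatin. It stood at 57.9, 51.7, 65.9 and 54.1 CPM in AICAR 1, AICAR 2, CA-p38 naive and VPA naive, and at 426 and 430 CPM in the primed libraries. The fold change on the log2 scale was -2.90 ± 0.11 (SE, adjusted p = 3.20e-10, edgeR). COL7A1, which forms the anchoring fibrils of skin, went the other way. Its naive values of 16.6, 11.2, 8.27 and 14.9 CPM all exceeded the primed values of 5.21 and 3.66. The log2 fold change was 1.52 ± 0.29 (SE, adjusted p = 0.000692, edgeR). In all, 5 of 9 basement membrane collagens were lower (62.5% of those tested), 1 was higher (12.5%), 2 did not pass and COL15A1 was not tested, against 27% lower and 26% higher of all genes tested.

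**Figure D3:**
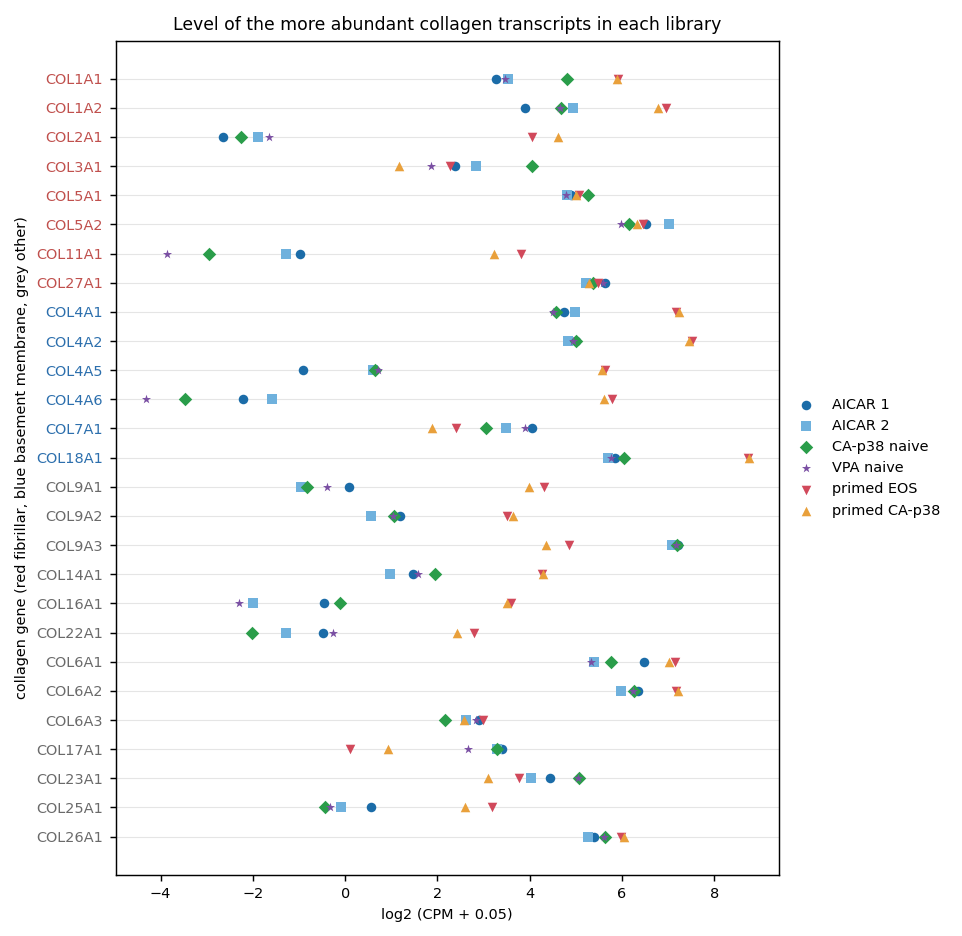
Level of the 27 collagen genes whose mean reached 5 CPM in either state, as log2 (CPM + 0.05), with 1 point per library. Blue circles and squares, green diamonds and purple stars are naive libraries, and red and orange triangles are primed ones. Naive and primed points are mixed for COL3A1, COL5A1, COL5A2, COL27A1 and COL6A3. Genes were kept for a high mean in either state, so the number that separate cannot be set against that over all genes.

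Among fibrillar collagens types I and II and COL11A1 fell, whereas types V and XXVII overlapped between the states. COL2A1, the main collagen of cartilage and of the notochord, stood at 0.110, 0.221, 0.158 and 0.267 CPM in AICAR 1, AICAR 2, CA-p38 naive and VPA naive, and at 16.4 and 24.5 CPM in primed EOS and primed CA-p38. The fitted log2 fold change was -6.74 ± 0.31 (SE, adjusted p = 1.80e-09, edgeR). COL11A1, a partner of type II in cartilage fibrils, had 0.460, 0.362, 0.0791 and 0.0191 CPM in the naive and 13.9 and 9.34 CPM in the primed libraries. The log2 fold change was -5.64 ± 0.57 (SE, adjusted p = 2.85e-06, edgeR). COL11A2, the other type XI chain, was measured at 0.681 to 1.60 CPM in naive and 2.32 and 1.59 CPM in primed libraries. The type XI genes thus differed in outcome, with COL11A2 at a log2 fold change of -0.79 ± 0.39 (SE, adjusted p = 0.106, edgeR). Over 15 alternatives its adjusted p ran from 0.0457, without VPA naive (-1.03), to 0.839, for its most abundant identifier by itself (-0.19), and its counts were spread over 7 identifiers.

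Type I collagen, the main fibre of bone, skin and tendon, is built from COL1A1 and COL1A2 chains. COL1A1 stood at 9.53 and 11.6 CPM in AICAR 1 and AICAR 2, 28 in CA-p38 naive and 11.1 in VPA naive, against 59.9 and 59.7 in the primed libraries. COL1A2 stood at 15, 30.4, 25.7 and 25.1 CPM in the naive libraries and at 123 and 110 in the primed ones. All naive values were lower, and CA-p38 naive held the most COL1A1 among them. The log2 fold changes were -1.99 ± 0.32 (SE, adjusted p = 0.000188) and -2.28 ± 0.20 (adjusted p = 7.89e-07), both from edgeR.

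COL3A1, which accompanies type I in skin and vessels, was most abundant in CA-p38 naive. It had 5.17 and 7.04 CPM in AICAR 1 and AICAR 2, 16.6 in CA-p38 naive and 3.57 in VPA naive, against 4.75 and 2.19 in the primed libraries. The states overlapped, and the log2 fold change was 1.22 ± 0.53 (SE, adjusted p = 0.0707, edgeR). Over the alternatives the log2 fold change ran from 0.59, without CA-p38 naive (adjusted p = 0.227), to 1.87, without primed EOS (adjusted p = 0.0525), and the adjusted p from 0.00114, with no filter on low counts, to 0.375, without primed CA-p38. It passed in 2 of 15 alternatives, the one with no filter and the one without VPA naive (1.45, adjusted p = 0.0187, edgeR). Of 8 fibroblast markers, LUM was also highest in CA-p38 naive, at 1.17 CPM. It had 0.313 CPM in AICAR 1 and 0.121 and 0.0409 in primed libraries. It had 0 in VPA naive and in AICAR 2, the library second highest for COL3A1. DCN had 0.764 to 1.21 CPM in naive and 0.566 and 0.511 in primed libraries. TWIST2 and MFAP5 were higher in naive cells, PDGFRB and POSTN lower, PRRX1 did not pass and FAP was at or near 0 in all libraries. The summed level of these markers was 11 to 14.7 CPM in naive and 21.1 to 22.4 CPM in primed libraries. Most of the primed sum was PDGFRB, at 17.2 and 16.3 CPM in primed and 0 to 0.181 in naive libraries. TWIST2 gave much of the naive sum, at 5.31 to 9.76 CPM against 0.182 and 0.981 in primed libraries. The median log2 fold change of the 7 markers tested was 1.14, so the sum does not describe the list. Naive cells were grown with mouse fibroblasts, for at least part of the culture, and then sorted. The part of mouse reads in these values was not tested.

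Type V collagen regulates the diameter of type I fibrils. COL5A1 had 29.7, 28.1, 38.3 and 27.4 CPM in AICAR 1, AICAR 2, CA-p38 naive and VPA naive and 33.5 and 32.2 in the primed libraries. COL5A2 had 91.3, 130, 70.5 and 62.5 CPM in naive and 87.2 and 79.8 in primed libraries. COL27A1 of cartilage had 49.4, 37.3, 41.1 and 47.8 CPM in naive and 44.7 and 38.9 in primed libraries. For all 3 genes the states overlapped, with log2 fold changes of -0.09 ± 0.15, 0.08 ± 0.23 and 0.07 ± 0.14 (SE) and edgeR adjusted p of 0.643, 0.777 and 0.693. COL5A3, a further type V chain, had 0.325 to 1.43 CPM in naive and 1.27 and 0.674 CPM in primed libraries. COL24A1 stayed at or below 0.646 CPM in every library. In all, 4 of 11 fibrillar collagens were lower (36.4%, against 27% of all genes tested), 0 were higher (against 26%) and 7 did not pass.

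The largest group, the other collagens, moved in both directions, and the chains of type IX did so within 1 molecule. Type IX is a collagen with an interrupted helix that sits on the surface of type II fibrils, built from COL9A1, COL9A2 and COL9A3 chains. COL9A3 (ENSG00000092758, chr20:62816244-62841159) rose to the highest level per kilobase of any collagen in naive cells, and stood at 148, 135, 146 and 143 CPM in AICAR 1, AICAR 2, CA-p38 naive and VPA naive. In primed EOS and primed CA-p38 it stood at 28.9 and 20.5 CPM. The naive values lay within 1.10-fold of each other. Its log2 fold change was 2.53 ± 0.15 (SE, adjusted p = 1.69e-08, edgeR).

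The partner chains of COL9A3 fell. COL9A1 had 1.01, 0.463, 0.514 and 0.706 CPM in naive and 19.7 and 15.7 in primed libraries, which is a log2 change of -4.70 ± 0.29 (SE, adjusted p = 2.64e-08, edgeR). COL9A2 had 2.24, 1.43, 2.02 and 2.0 CPM in naive and 11.3 and 12.4 in primed libraries, which is a log2 change of -2.62 ± 0.23 (SE, adjusted p = 9.09e-07, edgeR). The COL9A2 to COL9A3 count ratio was 0.0106 to 0.0152 in naive libraries and 0.391 and 0.606 in primed libraries. On the log2 scale the ratio averaged -6.23 ± 0.22 (SD, n = 4) and -1.04 ± 0.45 (SD, n = 2), a difference of -5.19. The exact permutation test gave p = 0.0667, two-sided, the smallest this design allows, and an adjusted p of 0.333 over 5 pairs of chains.

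For the other 4 pairs with at least 10 counts of each chain in every library, the log2 ratio differed between states by -0.35 to 0.19. These were COL1A1 to COL1A2, COL4A1 to COL4A2, COL5A1 to COL5A2, and COL6A1 to COL6A2, with exact permutation p of 0.8, 1.0, 0.8 and 0.333. The COL1A1 to COL1A2 ratio was 1.09 in CA-p38 naive and 0.379 to 0.637 in the other 5 libraries.

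Of the 10 fibril-associated collagens with interrupted helices, type IX included, 5 were lower, 2 were higher and 3 did not pass. COL14A1, a partner of type I fibrils, had 2.72, 1.91, 3.80 and 2.92 CPM in AICAR 1, AICAR 2, CA-p38 naive and VPA naive and 19.2 and 19.4 CPM in the primed libraries. COL16A1 had 0.681, 0.201, 0.870 and 0.153 CPM in naive and 12 and 11.3 CPM in primed libraries. COL22A1, found at tissue junctions, had 0.662, 0.362, 0.198 and 0.783 CPM in naive and 6.93 and 5.33 CPM in primed libraries. The states did not overlap for any of these, and the log2 fold changes were -2.76 ± 0.24, -4.61 ± 0.48 and -3.60 ± 0.42 (SE), with edgeR adjusted p of 6.32e-07, 3.49e-06 and 9.53e-06. COL20A1 was low but higher in naive cells, at 0.704 to 1.78 CPM against 0.121 and 0.368 CPM (log2 change 2.55 ± 0.58, SE, adjusted p = 0.00248, edgeR). COL12A1, COL19A1 and COL21A1 did not pass. COL12A1 had 3.39 CPM in primed CA-p38 and 0.362 to 1.46 CPM in the other libraries.

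Type VI collagen forms beaded filaments around cells, and its main trimer takes 1 chain each of COL6A1, COL6A2 and COL6A3. COL6A1 had 88.8 and 41.9 CPM in AICAR 1 and AICAR 2, 54.1 in CA-p38 naive and 40.0 in VPA naive, against 141 and 129 in the primed libraries. COL6A2, its neighbour on chromosome 21, had 81.3, 62.6, 76.4 and 75.3 CPM in naive and 145 and 148 CPM in primed libraries. Both were lower, with log2 fold changes of -1.26 ± 0.24 (SE, adjusted p = 0.00074) and -0.98 ± 0.11 (adjusted p = 1e-05), both from edgeR. The remaining chain, COL6A3, was at 7.47, 6.12, 4.41 and 7.10 CPM in naive and 7.88 and 5.93 CPM in primed libraries, with overlap (adjusted p = 0.673, edgeR). COL6A6, an alternative to COL6A3, had 0.202 to 1.73 CPM in naive and 0.788 and 0.327 CPM in primed libraries.

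The membrane-spanning collagens were split evenly, with 2 higher and 2 lower. COL17A1, the hemidesmosome collagen of basal epithelial cells, had 10.4, 9.76, 9.75 and 6.30 CPM in AICAR 1, AICAR 2, CA-p38 naive and VPA naive and 1.03 and 1.84 CPM in primed EOS and primed CA-p38. Its log2 fold change of 2.66 ± 0.32 (SE, adjusted p = 1.52e-05, edgeR) was the highest of the collagens tested. COL23A1 had 21.6, 16.3, 33.6 and 33.1 CPM in naive and 13.6 and 8.48 CPM in primed libraries, which is a log2 change of 1.24 ± 0.29 (SE, adjusted p = 0.00303, edgeR). The lowest naive value, in AICAR 2, lay just above primed EOS. COL25A1, the collagen found in amyloid plaques, had 1.42, 0.885, 0.692 and 0.745 CPM in naive and 9.01 and 6.03 CPM in primed libraries (log2 change -3.00 ± 0.32, SE, adjusted p = 5.10e-06, edgeR). COL13A1, of the neuromuscular junction, was lower at 0.257 to 0.704 against 1.74 and 2.10 CPM (log2 change -2.0 ± 0.43, SE, adjusted p = 0.00167, edgeR).

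The remaining collagens belong to no larger class or to short-chain networks. COL26A1 stood at 41.9, 38.1, 49.8 and 49.1 CPM in naive and 63.1 and 66.2 CPM in primed libraries. Its log2 fold change of -0.53 ± 0.13 (SE, adjusted p = 0.004, edgeR) was the smallest that passed. COL28A1 was higher at 1.80 to 2.65 against 0.707 and 0.490 CPM (log2 change 1.82 ± 0.37, SE, adjusted p = 0.00116, edgeR). COL8A2, of the membrane beneath the corneal endothelium, had 2 counts over the 4 naive libraries and 100 over the 2 primed libraries, a primed to naive ratio of 105 with an exact 95% interval of 28.4 to 880 that covers counting error only. COL8A1 overlapped between states, at 0.993 to 1.79 and 1.21 to 1.47 CPM. Over the 24 other collagens, 11 were lower (47.8% of those tested, against 27% of all genes), 5 were higher (21.7%, against 26%), 7 did not pass and COL6A5 was not tested.

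The bases before the starts of 3 of the 6 higher genes are shown, those of COL17A1, COL23A1 and COL7A1, because these genes moved against most of the family and were the most abundant of the higher genes with a window in the RefSeq table. No window was matched for COL9A3 and COL20A1, and that of COL28A1 is given by its counts alone. Each run covers 250 bases before a RefSeq start on GRCh38.p14, 5′ to 3′ on the gene's strand, with GC boxes, CCAAT boxes and TATA boxes (TATAAA) in capitals on either strand.
COL17A1, chr10:104085881-104086130, minus strand: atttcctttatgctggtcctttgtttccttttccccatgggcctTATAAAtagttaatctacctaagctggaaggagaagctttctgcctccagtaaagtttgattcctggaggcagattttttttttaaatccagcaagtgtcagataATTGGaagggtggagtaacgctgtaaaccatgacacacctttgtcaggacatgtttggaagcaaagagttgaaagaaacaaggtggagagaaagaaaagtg
COL23A1, chr5:178590394-178590643, minus strand: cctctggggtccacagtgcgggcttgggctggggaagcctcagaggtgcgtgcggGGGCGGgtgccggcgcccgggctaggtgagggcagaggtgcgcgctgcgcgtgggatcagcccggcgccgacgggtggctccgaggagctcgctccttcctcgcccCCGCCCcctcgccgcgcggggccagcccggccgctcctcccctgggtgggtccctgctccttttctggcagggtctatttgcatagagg
COL7A1, chr3:48595330-48595579, minus strand: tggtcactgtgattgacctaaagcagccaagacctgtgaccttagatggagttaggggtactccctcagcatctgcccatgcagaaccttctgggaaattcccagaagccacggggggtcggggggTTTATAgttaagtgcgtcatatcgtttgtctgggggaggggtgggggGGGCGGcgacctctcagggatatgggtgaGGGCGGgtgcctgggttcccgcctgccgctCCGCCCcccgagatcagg
COL17A1 has 1 CpG dinucleotide, 40.4% G and C, a TATA box and a CCAAT box and no GC box, COL23A1 has 25 CpG dinucleotides, 74.4% G and C and 2 GC boxes, and COL7A1 has 11 CpG dinucleotides, 60.8% G and C, a TATA box and 3 GC boxes. The window of COL28A1 has 1 CpG dinucleotide, 39.6% G and C, a CCAAT box and no GC or TATA box, which is close to that of COL17A1.

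RefSeq windows were matched for 32 of the 44 collagens, 44 windows in all since some genes have several starts. The set of windows used is incomplete. It held none for COL1A1, COL1A2, COL2A1, COL3A1, COL5A2, COL6A1, COL6A5, COL8A1, COL9A3, COL14A1, COL20A1 and COL22A1. Windows of lower collagens had a median of 16.0 CpG dinucleotides (range 2 to 40, 17 windows of 14 genes). Those of higher collagens had a median of 6.0 (range 1 to 25, 4 windows of 4 genes). The median was 11 for all genes in the set (35116 windows of 27305 genes). A GC box was in 58.8% of windows of lower, 50% of higher and 42.6% of all genes in the set. A CCAAT box was in 35.3%, 50% and 32.0%, and a TATA box in 17.6%, 50% and 10.7%. Ranges overlapped widely, and 4 windows are too few to compare. A match of letters is a description and does not show that a factor binds.

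Each induced library was next set against its own parental line, AICAR 1, AICAR 2 and VPA naive against primed EOS and CA-p38 naive against primed CA-p38. All 26 collagens that passed the test moved in 1 direction in all 4 libraries. For these genes the states did not overlap, so this was fixed beforehand and adds no evidence. A fold of at least 2 in all 4 was seen for 17 collagens below (13.3% of all genes tested) and 5 above (14.4% of all genes tested), out of 42 tested. Among the lower genes COL6A1, COL6A2 and COL26A1 fell short of 2-fold in at least 1 library, and among the higher genes COL23A1 did.

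**Figure D4:**
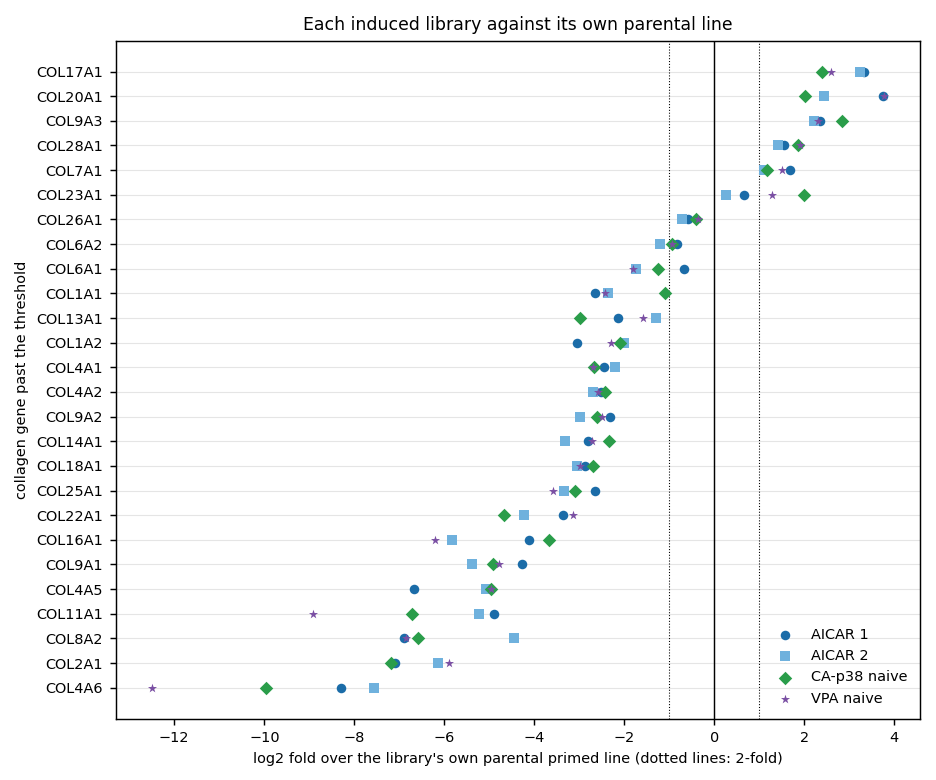
Log2 fold of each induced naive library over its own parental primed library, with 0.5 counts added, for the 26 collagen genes that passed the test. All points of a gene lie on the same side of 0, which follows from the lack of overlap between states for these genes. The VPA naive point of COL4A6 and all but the AICAR 2 point of COL8A2 rest on 0 counts, so their distance from 0 depends on the added count.

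For the abundant genes COL18A1 and COL4A2 the folds of the induction methods lay close together. AICAR 1, AICAR 2 and VPA naive are all set against primed EOS, so their folds are not independent. On the log2 scale over the own parental line, COL18A1 stood at -2.88 in AICAR 1, -3.04 in AICAR 2, -2.71 in CA-p38 naive and -2.98 in VPA naive. COL4A2 stood at -2.51, -2.69, -2.44 and -2.58 in the same order. COL9A3 stood at 2.36 in AICAR 1, 2.22 in AICAR 2 and 2.31 in VPA naive, and was highest in CA-p38 naive at 2.83. COL1A1 varied more, at -2.65, -2.37, -1.09 and -2.44, and COL3A1 more again, at 0.12, 0.57, 2.91 and -0.41. CA-p38 naive thus held more COL1A1 and COL3A1 over its parental line than the other libraries over theirs. A term for the difference between lines was added to the edgeR model after the data were seen, and 1 gene of all genes tested passed (0.00377%), which was no collagen. Of the collagens, COL1A1, COL3A1 and COL9A3 had an unadjusted p under 0.05 (0.000878, 0.00139 and 0.0374), and the lowest adjusted p was 0.831. This test rests on single libraries in all arms but naive cells of the EOS line. Parental line and induction method changed together, so the term cannot tell their effects apart.

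Among the 17 collagens with a naive mean of at least 5 CPM, the highest naive library exceeded the lowest by 1.10 to 4.64-fold, with a median of 1.66-fold. The extremes were COL9A3 and COL3A1. Among the 24 collagens with a primed mean of at least 5 CPM, the primed libraries differed by 1.0 to 1.61-fold, with a median of 1.10-fold.

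Genes that process and bind collagen were counted from lists of 60 genes, of which 57 were tested. Of these, 31 were lower in naive cells, 8 were higher and 18 did not pass, against 27% lower and 26% higher of all genes tested. The counts of each list below stand beside the same shares. The lists are short, and a count near these shares is no result about its list.

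In folding and modification, 8 of 17 genes were lower, 4 were higher and 5 did not pass. P3H2, a prolyl 3-hydroxylase known to act on type IV collagen, had 0.386 to 0.420 CPM in naive and 62.8 and 56.1 CPM in primed libraries. Its log2 fold change of -7.19 ± 0.17 (SE, adjusted p = 1.17e-11, edgeR) was the largest decrease in the lists. COLGALT2, a hydroxylysine galactosyltransferase, had 0.161 to 0.420 CPM in naive and 5.61 and 6.52 in primed libraries (log2 change -4.37 ± 0.39, SE, adjusted p = 9.48e-07, edgeR). CRTAP, a partner of prolyl 3-hydroxylase 1, was higher at 235 to 295 against 141 and 137 CPM (log2 change 0.93 ± 0.12, SE, adjusted p = 2.01e-05, edgeR). P4HA2, a prolyl 4-hydroxylase subunit, was higher at 23.2 to 34.2 against 20.7 and 9.11 CPM, and did not pass without primed CA-p38 (0.40, adjusted p = 0.187, edgeR).

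Some genes of this list were named after their values were seen. FKBP10, a collagen prolyl isomerase, had 9.46 to 12.5 CPM in naive and 187 and 200 CPM in primed libraries. SERPINH1, the collagen chaperone HSP47, had 186 to 207 against 649 and 628 CPM. P3H1 had 27.4 to 30.6 against 68.7 and 74.9 CPM, and P3H4 had 4.70 to 6.46 against 32.3 and 32.8 CPM. None of these overlapped, with log2 fold changes of -4.20, -1.69, -1.31 and -2.54. PPIB and P3H3 were lower by less than 2-fold. PLOD1 and P4HB were higher, by 0.63 and 0.34 on the log2 scale, and P3H3 and P4HB did not pass without primed EOS (adjusted p = 0.0697 and 0.0662, edgeR).

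**Figure D5:**
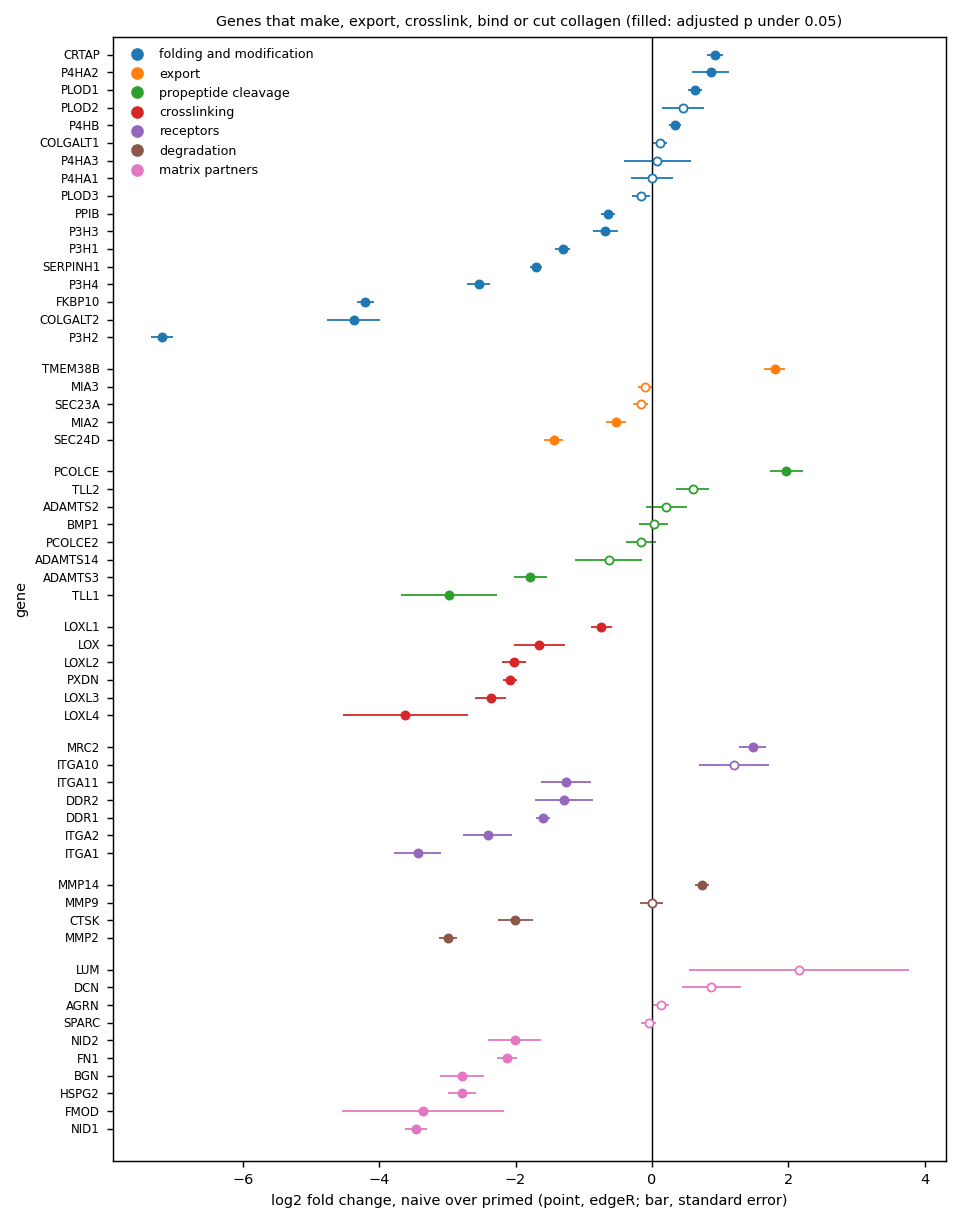
Log2 fold change of naive over primed cells for 57 genes that make, export, crosslink, bind or cut collagen, from edgeR, with bars of 1 standard error, coloured by list. Filled points passed an adjusted p of 0.05. All 6 crosslinking enzymes lie left of 0, between -3.62 and -0.74.

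In export, 2 of 5 genes were lower and 1 was higher. TMEM38B, an ion channel of the endoplasmic reticulum that collagen synthesis needs, had 37.1 to 47.5 CPM in naive and 10.8 and 12.9 CPM in primed libraries (log2 change 1.80 ± 0.16, SE, adjusted p = 6.42e-07, edgeR). SEC24D, a coat protein of export vesicles, had 28.8 to 40.2 against 85.2 and 105 CPM (log2 change -1.44 ± 0.14, SE, adjusted p = 2.14e-06, edgeR). MIA2 was lower, with a log2 fold change of -0.53, and did not pass without primed CA-p38 (adjusted p = 0.144, edgeR).

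In propeptide cleavage, 2 of 8 genes were lower (25%, near the 27% of all genes tested) and 1 was higher (12.5%, against 26%). PCOLCE, the enhancer of C-propeptide removal, had 17.1 to 25.7 CPM in naive and 6.91 and 4.11 CPM in primed libraries (log2 change 1.97 ± 0.24, SE, adjusted p = 1.79e-05, edgeR). ADAMTS3, an N-propeptidase that acts on type II, had 1.93 to 2.62 against 8.64 and 7.03 CPM (log2 change -1.78 ± 0.24, SE, adjusted p = 4.12e-05, edgeR). TLL1 was the other lower gene, below 1 CPM in every library.

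All 6 crosslinking genes were lower, with no overlap between states. Of all genes tested, 27% were lower, and 32.1% had every naive library below both primed libraries. PXDN, which forms the sulfilimine bonds of type IV collagen, had 87.8 to 109 CPM in naive and 381 and 444 CPM in primed libraries (log2 change -2.08 ± 0.11, SE, adjusted p = 5.10e-09, edgeR). LOXL3, a lysyl oxidase, had 2.21 to 3.56 against 16.9 and 13.7 CPM (log2 change -2.37 ± 0.23, SE, adjusted p = 1.94e-06, edgeR). LOXL2, LOX, LOXL1 and LOXL4 had log2 fold changes of -2.02, -1.65, -0.74 and -3.62. LOX did not pass without primed EOS (adjusted p = 0.164, edgeR), and LOXL4 did not pass without primed CA-p38 (adjusted p = 0.0744, edgeR).

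Of 7 receptors, 5 were lower and 1 was higher. ITGA1 and ITGA2, the alpha subunits of integrins that bind collagen, had 0.625 to 1.89 and 0.625 to 1.90 CPM in naive libraries. In primed libraries ITGA1 had 10.6 and 12.8 CPM and ITGA2 had 6.73 and 6.38 CPM. The log2 fold changes were -3.44 ± 0.35 and -2.41 ± 0.36 (SE), with edgeR adjusted p of 2.92e-06 and 9.54e-05. DDR1, a receptor kinase activated by collagen, was lower at 45.6 to 52.5 against 160 and 142 CPM. MRC2, which takes up collagen fragments, was higher at 64.2 to 102 against 36.3 and 25.2 CPM (log2 change 1.48 ± 0.20, SE, adjusted p = 3.38e-05, edgeR). ITGA11 and DDR2 were lower, but ITGA11 did not pass without primed CA-p38 (adjusted p = 0.26, edgeR) nor DDR2 without primed EOS (adjusted p = 0.188, edgeR).

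In degradation, 2 of 7 genes were lower, 1 was higher, MMP9 did not pass and MMP1, MMP8 and MMP13 were not tested. MMP2, the type IV collagenase, had 13.8 to 19.4 CPM in naive and 129 and 130 CPM in primed libraries (log2 change -2.99 ± 0.14, SE, adjusted p = 1.94e-09, edgeR). CTSK, a collagen-cutting cathepsin, had 1.78 to 2.31 against 10.4 and 6.44 CPM (log2 change -2.0 ± 0.26, SE, adjusted p = 2.53e-05, edgeR). MMP14, the membrane protease that activates MMP2, was higher at 140 to 161 against 86.0 and 92.7 CPM (log2 change 0.73 ± 0.11, SE, adjusted p = 6.24e-05, edgeR).

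Of 10 matrix partners, 6 were lower and 0 were higher. NID1, which links type IV collagen to laminin, had 9.49 to 15.7 CPM in naive and 155 and 139 CPM in primed libraries (log2 change -3.46 ± 0.16, SE, adjusted p = 2.59e-09, edgeR). HSPG2, the basement membrane proteoglycan perlecan, had 15.8 to 31.4 against 147 and 152 CPM (log2 change -2.79 ± 0.21, SE, adjusted p = 1.42e-07, edgeR). FN1 and BGN were lower as well, with log2 fold changes of -2.12 and -2.79. AGRN had 144 to 185 CPM in naive and 147 and 156 CPM in primed libraries, and SPARC had 274 to 347 against 309 and 346 CPM. Neither passed, with log2 fold changes of 0.13 ± 0.11 and -0.05 ± 0.11 (SE).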

How the data were processed

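The authors trimmed reads with cutadapt 1.15 and Trim Galore 0.4.4, mapped them with Bowtie2 to Ensembl GRCh38 cDNA and noncoding RNA, kept alignments of mapping quality 1 or more and deposited whole counts per Ensembl identifier, without normalization. Whether strand was used is not given in the sources used here. Of the table, 26 spike-in features, with 0 or 1 counts in all per library, were left out and 23 columns of other studies were not used. Counts of identifiers sharing a name were summed (6932 names).

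The 4 naive libraries were tested against the 2 primed ones by edgeR 4.0.16 under R 4.3.3 (quasi-likelihood test, TMM scaling, filterByExpr, no covariates), with Benjamini-Hochberg adjustment over 26497 genes. CPM values are TMM-scaled, and SE is the absolute log2 fold change over the square root of F. On simulated counts edgeR called 29 of 100 genes changed 2-fold and 100 of 100 changed 4-fold, with 6 false calls among 25885 genes. Far fewer genes were changed there than were called in the data, which makes the adjusted threshold stricter. These rates therefore do not measure how often a change was missed in the data. Ratios of chains were tested by exact permutation over libraries (scipy 1.17.1). Gene spans and exon lengths come from GENCODE 44 on GRCh38.

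Members and lists were chosen with earlier results of these data known. All members are accounted for, with every library's value for those with a mean of 5 CPM or more in either state. In each pathway list the 2 largest increases and 2 largest decreases among genes past the threshold at 5 CPM or more are named by rule. Other genes were named after their values were seen. Besides those of the folding list, these were LOX, LOXL1, LOXL2, LOXL4, DDR1, DDR2, ITGA11, FN1, BGN, AGRN and SPARC. Alternatives covered scaling, test (DESeq2 1.42.0, limma-voom with limma 3.58.1), filter, identifiers, parental line as a block, the AICAR pair summed, and leaving out libraries 1 by 1. Parental line was a planned block because the labels give the lines, and replicate numbers do not pair naive with primed libraries.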

Additional observations from a re-analysis of the deposited data

Results flagged for a closer look

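Among the 73 collagen and pathway genes named, 4 collagens had a naive library apart from the other 3 by Dixon's test on log2 CPM, which chance gives for about 1 in 20 groups. COL4A5 was lowest in AICAR 1 at 0.478 CPM, against 1.47 to 1.58 CPM in the other naive libraries. COL17A1 was lowest in VPA naive at 6.30 CPM, against 9.75 to 10.4 CPM. COL20A1 was lowest in AICAR 2 at 0.704 CPM, against 1.52 to 1.78 CPM. COL8A2 had 0.0402 CPM in AICAR 2, from 2 counts, and 0 in the other naive libraries. COL5A1 was higher in CA-p38 naive than in its parental line, by 0.25 on the log2 scale, while the 3 naive libraries of the EOS line lay below theirs by -0.18 to -0.29. The edgeR term for the difference between lines gave an unadjusted p of 0.102 and an adjusted p of 1.0 for this gene.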

How the results depend on the processing

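The 26 collagens that passed the test kept their direction and passed in each of the 15 alternatives that tested them, and 6 of them could not be tested with at least 10 counts in every library. Of 36 pathway genes named that passed, 28 held in all. The other 8 were lost only without 1 primed library, at values given beside them. The depth limits COL15A1, COL6A5 and other genes below 1 CPM. A 2-fold change was often missed in the simulation, but few genes were changed there, so the rate in the data is not known. Without a filter on low counts 1 fibrillar collagen, COL3A1, was higher, and the median of other collagens was -0.80. With at least 10 counts in every library 2 fibrillar collagens were lower, since fewer were tested, and their median was -0.26. The fibrillar median was -0.43 by limma-voom and -0.30 with each identifier by itself. With AICAR libraries summed the median of other collagens was -0.77 and COL5A2 was at -0.047. With the replicate block of the parental line COL5A2 was at -0.0035, and the block changed no other direction or call of a collagen or pathway gene named. With library totals COL5A1 was at 0.0077 and SPARC at 0.054. The causes were not tested.

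Leaving out each library in turn gave a median over collagens of -1.01 to -0.71, over fibrillar collagens of -1.03 to -0.073 and over other collagens of -0.96 to -0.32, and 0 to 1 fibrillar collagens higher (COL3A1 without VPA naive). Genes that did not pass ranged from 0.59 to 1.87 for COL3A1, -0.017 to 0.16 for COL27A1, -0.094 to 0.61 for COL4A3, -0.16 to 0.20 for COL5A2, -0.74 to 0.23 for COL5A3, -0.32 to 0.070 for COL6A3 and -0.14 to 0.043 for SPARC. The state difference of the log2 chain ratio ranged from -0.11 to 0.39 for COL1A1/COL1A2, -0.11 to 0.086 for COL4A1/COL4A2 and -0.33 to 0.11 for COL5A1/COL5A2, an analysis added after seeing the data.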
